A study of Mus musculus with 6 samples.

Results

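The 36 genes described here mark the walls of brain blood vessels: endothelial cells, the blood-brain barrier that those cells form, pericytes, and the smooth muscle of small arteries. They were chosen by gene name out of 54658 genes listed in the count tables. All 36 were listed, all had counts in every library (15 to 20652 per gene and library), and all passed the expression filter that left 17563 genes for testing.

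The study measured RNA in the nucleus accumbens, a ventral striatal region central to reward, by RNA sequencing of whole tissue after removal of ribosomal RNA. In the Gas5 group, 3 samples came from C57BL6 male mice aged 8 weeks whose nucleus accumbens was injected with a herpes simplex viral vector, p1005+, that carries Gas5, a long noncoding RNA, and EGFP. In the GFP group, 3 samples came from mice of the same strain, sex and age injected with the same vector carrying EGFP alone, so both groups had an injection, a viral vector and EGFP. The labels do not say which cells took up the vector, what promoter drove Gas5, or whether each sample came from 1 animal or from several pooled, so every p-value here reflects the scatter of the 6 samples, which may be technical.

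Endothelial cells of the brain are sealed to each other by tight junctions, carry few vesicles, and move nutrients and drugs through dedicated carriers and pumps. Pericytes sit on the outer face of capillaries, share a basement membrane with the endothelium, and are recruited and kept there by PDGF signalling. Vascular endothelial growth factor and the angiopoietins act on endothelial receptor kinases to set vessel growth and leakiness. Inflamed endothelium displays adhesion molecules that capture leukocytes.

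Total counts were 38605056 to 42524874 in the Gas5 libraries and 32359052 to 56081575 in the GFP libraries. Levels are given in CPM, counts divided by a library size that TMM adjusts, and differences as the log2 fold change of Gas5 over GFP. Gas5 itself was 1.30-fold higher in the Gas5 libraries (edgeR quasi-likelihood test, Benjamini-Hochberg adjusted p = 0.0163). It stood at 22.6, 23.3 and 23.6 CPM there, against 18.6, 16.5 and 18.3 CPM in the GFP libraries. Other genes overlap 26.6% of the Gas5 span, where reads were not counted, so these values cover part of the gene only. Over all tested genes, 5.44% passed an adjusted p of 0.05, with 1.48% higher and 3.96% lower in the Gas5 libraries. Medium spiny neurons, the main cells of this region, were well represented, with 10 markers that summed to 4357 to 5706 CPM in the Gas5 libraries and 5237 to 5983 CPM in the GFP libraries, and 0 of them were called by edgeR, DESeq2 or limma-voom or had an unadjusted p below 0.05. The largest difference among the marker lists of other cells lay in 10 genes of cortical excitatory neurons, whose summed level was 13.4 to 62.9 CPM in the Gas5 libraries and 212 to 359 CPM in the GFP libraries, with 8 lower and 0 higher. Among 10 reactive astrocyte markers, 7 were tested and 4 were higher (Vim, Serpina3n, Lcn2 and C3), with sums of 73.4 to 146 CPM in the Gas5 libraries and 32.1 to 42.4 CPM in the GFP libraries. Gfap and Timp1 of that list stood at 0 in every library because they lie wholly inside other genes, where reads were not counted.

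The vascular genes as a group stood close to the same level in both groups. Their summed level was 1127, 1111 and 1171 CPM in the Gas5 libraries, against 1174, 1145 and 1128 CPM in the GFP libraries. The largest parts of this sum are Tjp1 and Cspg5, which neurons and glia make. Tjp1 had means of 360 CPM in the Gas5 libraries and 373 CPM in the GFP libraries, and Cspg5 126 and 115 CPM. The mean log2 CPM weighs each gene the same. It was 3.85, 3.81 and 3.89 in the Gas5 libraries, against 3.86, 3.84 and 3.82 in the GFP libraries. The groups overlapped on both measures. Of the 36 genes, 1 passed the test, Flt1, which was lower in the Gas5 libraries, and 0 were higher. That is 2.78% of them, beside 5.44% of all tested genes. At an unadjusted p below 0.05 there were 4, namely Ly6a and Vcam1 higher and Flt1 and Slco1a4 lower, beside 21.4% of all tested genes. DESeq2 called 2 higher (Ly6a and Vcam1) and 1 lower, and limma-voom called 0 higher and 1 lower. Over all 17563 tested genes, DESeq2 called 494 higher and 998 lower, and limma-voom 216 higher and 665 lower. The median log2 fold change of the 36 genes was -0.01, against 0.02 over all tested genes. Of the 36 values, 17 were above 0 (47.2%, against 54.2% of all tested genes) and 19 below. Regardless of sign, the median size was 0.0672 for these genes and 0.121 for all tested genes on the log2 scale, and 30 of the 36 lay within 0.15 of 0.

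The intervals around these differences show how large a difference between the groups the main fit leaves possible, given the scatter of these 6 samples. They do not take in the choice of fit. Over the alternative fits the log2 fold change of Anpep, for example, ran from -0.87 to 0.18. In 32 of the 36 genes the 95% interval lay within 1.5-fold in either direction. The other 4 were Ly6a and Vcam1, whose estimates were the highest, and Acta2 and Tagln, whose counts were low. The 2 groups did not overlap in 6 genes (Tjp1, Flt1, Tek, Egfl7, Slco1a4 and Vcam1), which is 16.7% of them, beside 27.7% of all tested genes. In bulk tissue, fewer cells of a type and less RNA per cell cannot be told apart.

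**Figure D1:**
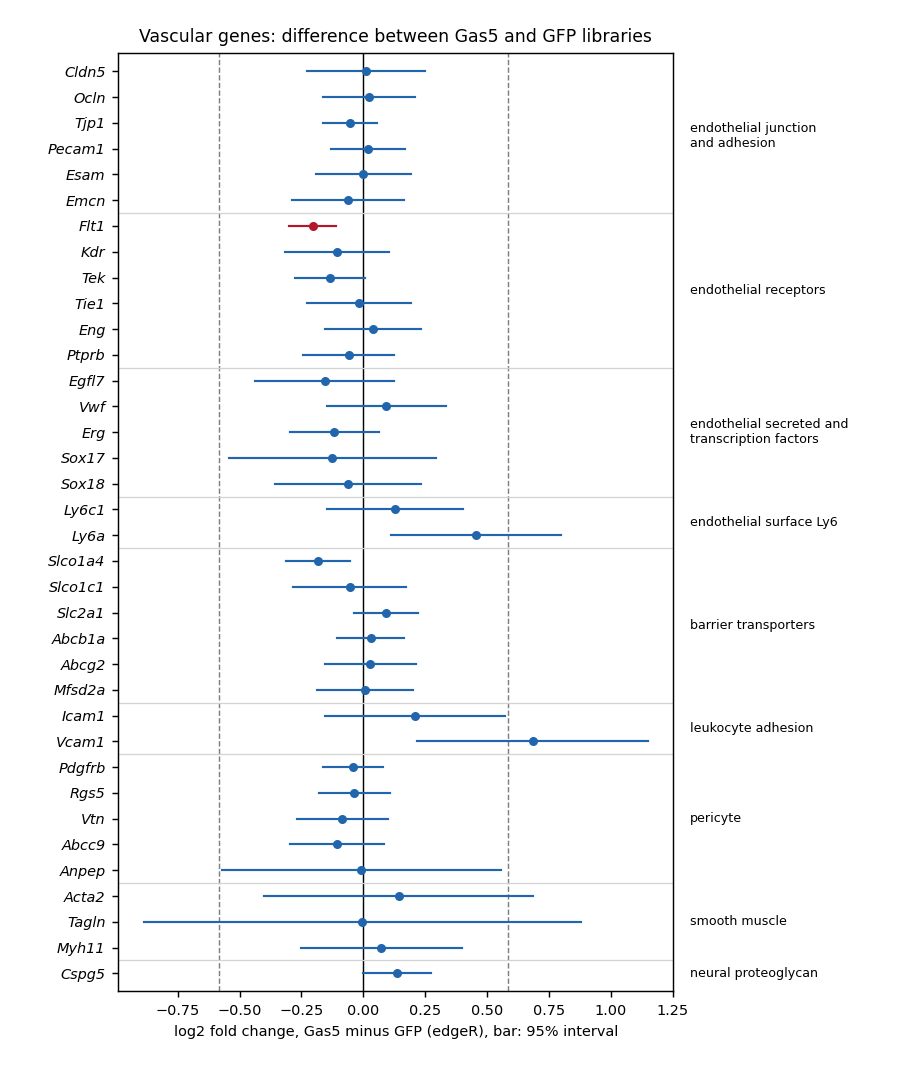
Log2 fold change of Gas5 over GFP (x axis) for each of the 36 vascular genes, ordered by role; points are edgeR estimates, bars are 95% intervals, and dashed lines mark 1.5-fold in either direction. Flt1 (red) passed the adjusted threshold, and the intervals of Ly6a, Vcam1, Acta2 and Tagln reach beyond 1.5-fold.

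The endothelial receptors hold the 1 gene that passed the test. Flt1, the receptor VEGFR1 that binds VEGF tightly and is often described as a decoy for it, stood at 78.7, 77.6 and 80.9 CPM in the Gas5 libraries, against 89.4, 92 and 92 CPM in the GFP libraries. All 3 Gas5 libraries lay below all 3 GFP libraries, and the spread within either group was small, with means of 79.1 ± 1.66 CPM in the Gas5 libraries and 91.1 ± 1.52 CPM in the GFP libraries (SD, n = 3 each). Flt1 fell by 0.20 on the log2 scale (SE 0.0415, edgeR adjusted p = 0.030), and GFP over Gas5 was 1.15-fold, with a 95% interval of the log2 fold change from -0.30 to -0.11. The gene lies on chr5:147561604-147726011 of GRCm38, on the minus strand, and shares no base with another listed gene. Of its span, 8.21% is annotated as exon. Its count covers the whole span, and exonic and intronic reads were not separated. Its call was lost in 5 of the 6 fits that left out 1 library: the adjusted p was 0.0631 without Gas5 A, 0.0522 without Gas5 B, 0.0513 when GFP A was left out, 0.143 for GFP B and 0.136 for GFP C, while the log2 fold change stayed between -0.23 and -0.19. In a fit that also held the cortical marker score, the mean log2 CPM of the 10 cortical genes, the log2 fold change was -0.13 (SE 0.119, adjusted p = 0.9997). That fit called 0 of all tested genes, and the score does not overlap between the groups. Here and for the genes below, it therefore cannot tell apart a difference that follows the score and one that follows Gas5.

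The other 5 receptors did not pass the test. Kdr, the receptor VEGFR2 that carries most VEGF signalling in endothelium, stood at 13, 13.6 and 14.1 CPM in the Gas5 libraries, against 16.3, 12.8 and 14.6 CPM in the GFP libraries. Its groups overlapped, with a log2 fold change of -0.11 (SE 0.0921, adjusted p = 0.549). Tek, the angiopoietin receptor Tie2, stood at 24.1, 26.4 and 26.1 CPM in the Gas5 libraries, against 26.8, 29.8 and 27.5 CPM in the GFP libraries. The Tek groups did not overlap, yet the difference of -0.14 (SE 0.0623) had an adjusted p of 0.256. Its partner Tie1, the TGF-beta co-receptor Eng (endoglin) and Ptprb, the phosphatase VE-PTP that restrains Tek, had log2 fold changes of -0.02, 0.04 and -0.06. DESeq2 and limma-voom each called Flt1 and none of the other 5 receptors.

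RefSeq promoters, windows of 300 bases that take in the annotated start, were at hand for 24 of the 36 genes by symbol, with 32 promoters in all. ETS factors such as Erg are central to endothelial transcription, and the ETS core GGAAG was searched on both strands, as a match of letters and not as a site. It occurred in 23 of the 32 promoters (71.9%), against 71.4% of all 32851 promoters in the table. The SOX core ACAAT occurred in 6 (18.8%, against 31.0% of all), its longer form AACAAT, which contains it, in 4 (12.5%, against 10.7%), and the CArG box in 0 (against 1.63%). The promoters of the 2 VEGF receptors and of Slco1a4, the transporter of smallest p described further on, are shown with every GGAAG, or CTTCC where it reads on the other strand, in capitals. They are given from 5′ to 3′ on the strand of the gene, in GRCm38.p6, at chr5:147725962-147726261 for Flt1, chr5:75978406-75978705 for Kdr and chr6:141856171-141856470 for Slco1a4, all on the minus strand.
Flt1: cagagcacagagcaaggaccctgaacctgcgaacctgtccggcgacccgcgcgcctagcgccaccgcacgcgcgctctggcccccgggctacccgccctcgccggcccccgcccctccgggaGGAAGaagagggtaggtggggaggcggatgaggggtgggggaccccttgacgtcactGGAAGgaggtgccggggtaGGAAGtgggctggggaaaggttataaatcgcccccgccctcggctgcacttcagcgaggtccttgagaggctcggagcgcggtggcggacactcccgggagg
Kdr: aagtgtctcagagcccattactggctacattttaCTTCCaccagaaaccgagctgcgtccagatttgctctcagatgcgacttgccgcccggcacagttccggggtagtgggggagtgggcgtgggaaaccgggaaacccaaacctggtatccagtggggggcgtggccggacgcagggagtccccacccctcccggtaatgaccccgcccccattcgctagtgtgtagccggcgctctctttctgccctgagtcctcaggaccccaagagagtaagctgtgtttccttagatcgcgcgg
Slco1a4: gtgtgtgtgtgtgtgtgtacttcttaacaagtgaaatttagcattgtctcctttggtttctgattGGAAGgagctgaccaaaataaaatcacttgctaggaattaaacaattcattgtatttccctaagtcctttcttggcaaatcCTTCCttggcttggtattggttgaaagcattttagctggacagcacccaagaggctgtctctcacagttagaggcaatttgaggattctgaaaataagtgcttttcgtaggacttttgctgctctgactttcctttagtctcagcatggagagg
Flt1 held 3 matches, Slco1a4 held 2 and Kdr held 1.

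Tight junction and adhesion genes of the endothelium showed no difference past the threshold: of 6, edgeR, DESeq2 and limma-voom each called 0, and 0 had an unadjusted p below 0.05. Cldn5, the main claudin of the barrier, is the gene with the highest level per length among the 36, at 11.1 CPM per kb in the Gas5 libraries and 11 CPM per kb in the GFP libraries. It stood at 15, 15.1 and 17.1 CPM in the Gas5 libraries, against 16.6, 16.9 and 13.1 CPM in the GFP libraries. The Cldn5 groups overlapped, and the highest value belonged to a Gas5 library and the lowest to a GFP library. The log2 fold change was 0.01 (SE 0.105, adjusted p = 0.964), with a 95% interval from -0.23 to 0.25. Cldn5 is a single stretch of exon, 100% of its span on chr16:18776847-18778262, so its count holds no intronic sequence.

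Tjp1 encodes the scaffold ZO-1, which links junction proteins to actin and which neurons and glia also make. It stood at 347, 367 and 365 CPM in the Gas5 libraries, against 372, 377 and 370 CPM in the GFP libraries. The groups did not overlap, but the difference was -0.05 (SE 0.0478, adjusted p = 0.570). Ocln, which encodes the junction protein occludin, stood at 9.69, 8.79 and 9.14 CPM in the Gas5 libraries, against 9.66, 8.82 and 8.63 CPM in the GFP libraries. Pecam1, the endothelial adhesion molecule CD31, stood at 14.5, 15.1 and 14.2 CPM in the Gas5 libraries, against 15.2, 14.3 and 13.6 CPM in the GFP libraries. Both had a log2 fold change of 0.02 and overlapping groups. The adhesion molecule Esam and the sialomucin Emcn, which is typical of capillaries and veins, had log2 fold changes of 0.00 and -0.06.

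Secreted products and transcription factors of the endothelium also stayed below the threshold, with 0 of 5 called by edgeR, DESeq2 or limma-voom and 0 at an unadjusted p below 0.05. Erg, an ETS factor that maintains endothelial identity, stood at 10.6, 10.2 and 10.2 CPM in the Gas5 libraries, against 12.1, 11 and 10.4 CPM in the GFP libraries. Its groups overlapped, with a log2 fold change of -0.12 (SE 0.0787, adjusted p = 0.440). Sox18 had the highest level per length of these 5, at 1.28 CPM per kb in the Gas5 libraries and 1.34 CPM per kb in the GFP libraries, and stood at 2.46, 2.17 and 2.32 CPM in the Gas5 libraries, against 2.36, 2.49 and 2.42 CPM in the GFP libraries. Sox18 and Sox17, which act in endothelial and arterial specification, had log2 fold changes of -0.06 and -0.13. Vwf, the clotting factor stored in endothelial granules, stood at 21.9, 23.6 and 28.7 CPM in the Gas5 libraries, against 24.9, 23.4 and 21 CPM in the GFP libraries. Gas5 C was the highest and GFP C the lowest, and the log2 fold change was 0.09 (SE 0.105, adjusted p = 0.662).

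Egfl7, a factor secreted by endothelium, was measured on part of its gene only. Its span on chromosome 2 is shared over 49.5% with Agpat2, Gm20532, Mir126a and Mir126b, and reads in shared stretches were not counted. It stood at 2.71, 2.5 and 2.5 CPM in the Gas5 libraries, against 3.04, 2.80 and 2.74 CPM in the GFP libraries. The groups did not overlap, with a log2 fold change of -0.16 (SE 0.124, adjusted p = 0.511). Egfl7 hosts miR-126, a microRNA enriched in endothelium, whose gene Mir126a had 0 counts in every library for the same reason. Its mature 3p form is shown as the part of this locus that the counts do not cover, at chr2:26591402-26591423 on the plus strand of GRCm38.p6, from RefSeq, with the seed (bases 2 to 8) in capitals.
mmu-miR-126a-3p: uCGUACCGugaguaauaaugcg

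The heat map of the single libraries shows how small most of these differences were beside the spread within a group. The median coefficient of variation of a gene within a group was 6.83% in the Gas5 libraries and 7.69% in the GFP libraries. It was highest for Vcam1 in the Gas5 libraries (32.5%) and for the low-count Tagln in the GFP libraries (42.9%). GFP B was the highest of the 6 libraries for 13 genes and GFP C the lowest for 11. Gas5 A was the highest for 7 genes and the lowest for 9, so no library stood high or low across the whole set.

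**Figure D2:**
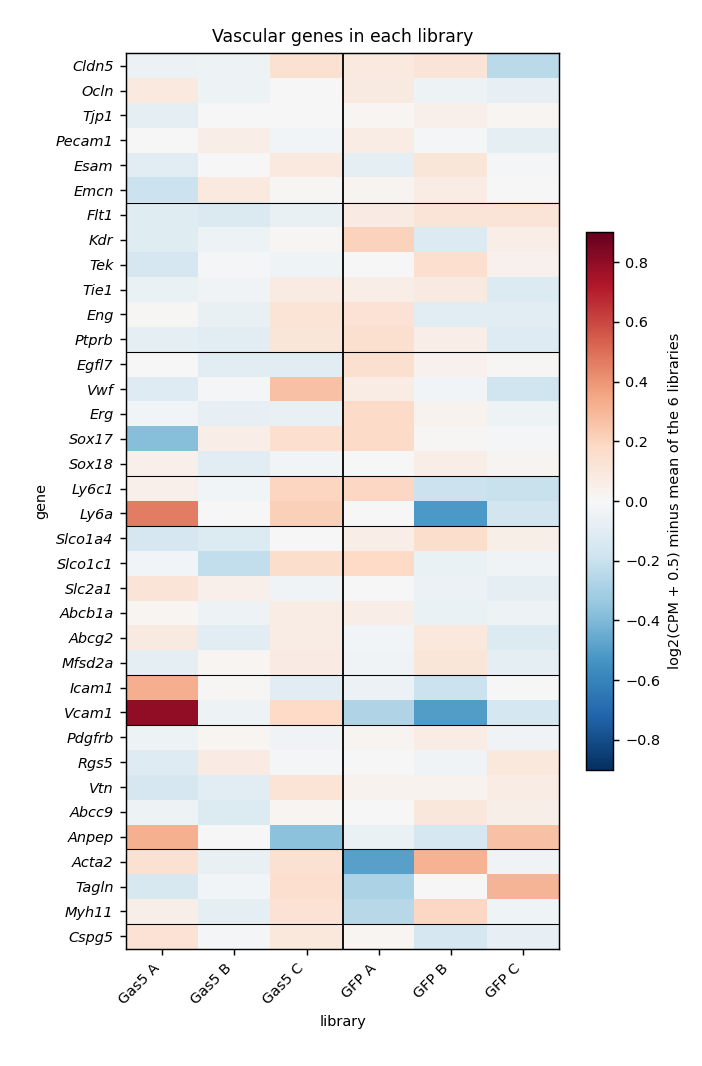
Each row is a vascular gene and each column a library, with colour for log2(CPM + 0.5) minus the mean of the 6 libraries; horizontal lines separate roles and the vertical line separates the Gas5 libraries on the left from the GFP libraries on the right. The strongest colours are those of Vcam1 and Ly6a, high in Gas5 A and low in GFP B, and of a few low-count genes such as Acta2 and Anpep.

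Ly6a and Vcam1 had the largest positive estimates, and neither passed the adjusted threshold. Ly6a, the surface protein Sca-1, is carried by brain endothelium in mice and is known to be induced by interferon. It stood at 28.4, 20.5 and 23.7 CPM in the Gas5 libraries, against 20.5, 14.1 and 18.1 CPM in the GFP libraries. The gene lies on chr15:74994877-74998031, minus strand. The groups met at 20.5 CPM, where Gas5 B and GFP A were alike. The means were 24.2 ± 3.95 CPM in the Gas5 libraries and 17.6 ± 3.23 CPM in the GFP libraries (SD, n = 3 each), which is 1.37-fold, with a log2 fold change of 0.46 (SE 0.15, 95% interval 0.11 to 0.80, adjusted p = 0.124). Leaving out Gas5 A or GFP B lowered the log2 fold change to 0.32. DESeq2 called Ly6a higher (adjusted p = 0.0368), limma-voom did not (adjusted p = 0.140), and a fit that included the cortical marker score gave -0.30 (adjusted p = 0.9997).

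The neighbour and paralog of Ly6a, Ly6c1, lies within the same 54.0 kb of chromosome 15 and is a common marker of capillary endothelium. Ly6c1 stood at 11.5, 10.9 and 12.7 CPM in the Gas5 libraries, against 12.7, 9.62 and 9.60 CPM in the GFP libraries. Its groups overlapped, with a log2 fold change of 0.13 (SE 0.121, adjusted p = 0.592). Reads of such related genes may have been shared or dropped in counting, so both levels are uncertain. In a list of 10 interferon response genes, 0 were called by edgeR, DESeq2 or limma-voom and 5 were higher at an unadjusted p below 0.05, with sums of 491 to 695 CPM in the Gas5 libraries and 248 to 491 CPM in the GFP libraries. Its part in the Ly6a difference was not tested.

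Leukocyte adhesion molecules were represented by Vcam1 and Icam1. Vcam1, which binds the integrin VLA-4 on leukocytes and is also made by some astrocytes, stood at 30.6, 16.8 and 19.7 CPM in the Gas5 libraries, against 14.3, 12.1 and 15.5 CPM in the GFP libraries. The groups did not overlap, and Gas5 A stood far above the rest. The gene lies on chr3:116109949-116129688, minus strand, and overlaps other genes over 6.27% of its length. The means were 22.4 ± 7.26 CPM in the Gas5 libraries and 13.9 ± 1.73 CPM in the GFP libraries (SD, n = 3 each), which is 1.61-fold, with a log2 fold change of 0.68 (SE 0.204, 95% interval 0.22 to 1.15, adjusted p = 0.097). Without Gas5 A the log2 fold change was 0.38 (adjusted p = 0.124), and without Gas5 B it was 0.85 and passed the test (adjusted p = 0.0399). DESeq2 called Vcam1 higher (adjusted p = 0.00699), limma-voom did not (adjusted p = 0.124), and a fit that included the cortical marker score gave -0.41 (adjusted p = 0.9997). Gas5 A was also the library with the highest sum of the reactive astrocyte markers, at 146 CPM, and of the interferon list, at 695 CPM; their part in the Vcam1 difference was not tested.

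Icam1, the ligand of the leukocyte integrin LFA-1, stood at 3.76, 2.92 and 2.68 CPM in the Gas5 libraries, against 2.77, 2.46 and 2.90 CPM in the GFP libraries. Gas5 A was again the highest, the groups overlapped, and the log2 fold change was 0.21 (SE 0.159, adjusted p = 0.501). Other genes of inflamed or leaky endothelium numbered 12, of which 7 were tested, 0 were called by edgeR, DESeq2 or limma-voom and 1 had an unadjusted p below 0.05. That gene was Cd44, a hyaluronan receptor that reactive glia also make, at 11.6, 4.72 and 6.09 CPM in the Gas5 libraries, against 4.55, 3.97 and 5.35 CPM in the GFP libraries. Cd44 too was highest in Gas5 A, and its adjusted p was 0.228.

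**Figure D3:**
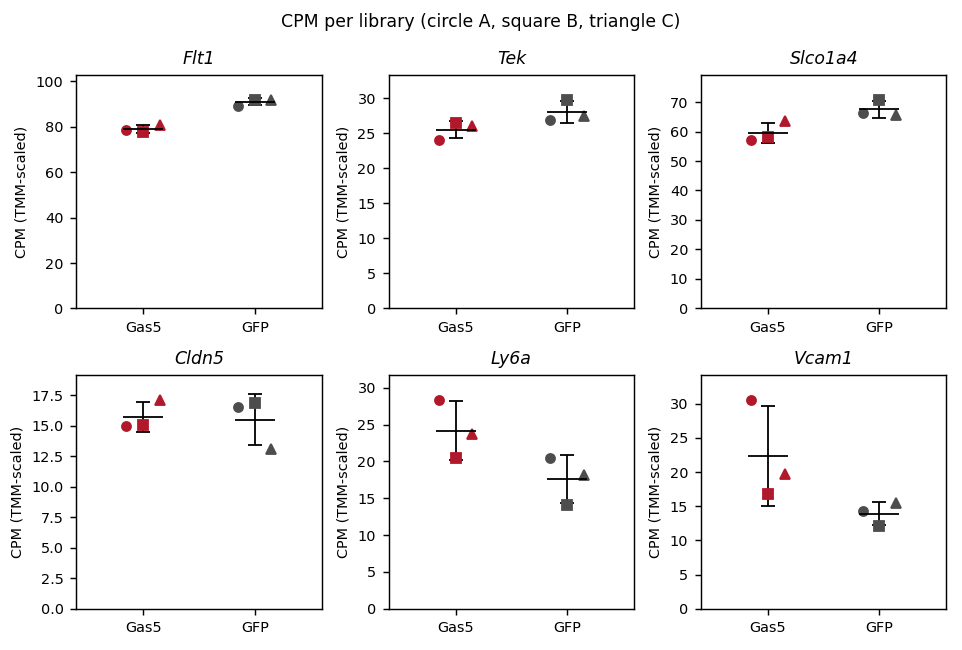
CPM per library of 6 vascular genes, Gas5 libraries (red) left of GFP libraries (grey); symbols give the library letter, the long bar the mean and the error bars the SD of 3 libraries. The groups do not overlap for Flt1, Tek, Slco1a4 and Vcam1, whereas those of Cldn5 overlap and those of Ly6a meet at 20.5 CPM.

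Transporters of the barrier stayed below the threshold, with 0 of 6 called by edgeR, DESeq2 or limma-voom and 1 at an unadjusted p below 0.05. That one, Slco1a4, is the mouse organic anion carrier Oatp2, which is concentrated in brain capillaries, and lies on chr6:141805440-141856199, minus strand. It stood at 57.0, 58.1 and 63.5 CPM in the Gas5 libraries, against 66.2, 70.8 and 65.7 CPM in the GFP libraries. The groups did not overlap, with means of 59.5 ± 3.48 CPM in the Gas5 libraries and 67.6 ± 2.83 CPM in the GFP libraries (SD, n = 3 each). The log2 fold change was -0.18 (SE 0.0561, 95% interval -0.31 to -0.06, unadjusted p = 0.0105, adjusted p = 0.102). With the cortical marker score in the fit it was 0.02 (adjusted p = 0.9997).

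Slco1c1, the thyroxine carrier Oatp1c1 of endothelium and astrocytes, had the highest level per length of the transporters, at 1.29 CPM per kb in the Gas5 libraries and 1.33 CPM per kb in the GFP libraries. It stood at 58.8, 51.1 and 66.8 CPM in the Gas5 libraries, against 67.5, 57.2 and 58.5 CPM in the GFP libraries, with overlapping groups and a log2 fold change of -0.06 (SE 0.100, adjusted p = 0.795). Slc2a1, the glucose carrier GLUT1, which astrocytes also make in another form, stood at 32.1, 30.5 and 28.8 CPM in the Gas5 libraries, against 29.5, 28.4 and 27.7 CPM in the GFP libraries. The Slc2a1 groups overlapped, with a log2 fold change of 0.09 (SE 0.0566, adjusted p = 0.394). The drug efflux pumps Abcb1a (P-glycoprotein) and Abcg2 both had a log2 fold change of 0.03. Mfsd2a, the lipid carrier that keeps transcytosis low in barrier endothelium, stood at 8.70, 9.33 and 9.73 CPM in the Gas5 libraries and 9.01, 9.96 and 8.66 CPM in the GFP libraries, with a log2 fold change of 0.01.

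Pericyte genes all had log2 fold changes just below 0, from -0.11 to -0.01, and 0 of the 5 were called by edgeR, DESeq2 or limma-voom or had an unadjusted p below 0.05. Under upper quartile scaling the sign of the lowest of them in level per length, Anpep, turned to 0.02. Over the alternative fits, the sign held in 10 of 14 for Anpep, 13 of 14 for Abcc9 and 12 of 15 for Rgs5. It held in 14 of 15 for Vtn and 15 of 15 for Pdgfrb. Their summed level was 86.2, 92.5 and 91.9 CPM in the Gas5 libraries, against 92.4, 92.7 and 95.6 CPM in the GFP libraries, and the groups overlapped by the single value of Gas5 B. Vtn, which encodes the matrix protein vitronectin and had the highest level per length of these, stood at 15.3, 15.8 and 18.6 CPM in the Gas5 libraries, against 17.5, 17.4 and 17.8 CPM in the GFP libraries. The log2 fold change of Vtn was -0.08 (SE 0.080, adjusted p = 0.589). Abcc9, a subunit of the potassium channel of pericytes, had the smallest p and stood at 7.12, 6.73 and 7.46 CPM in the Gas5 libraries, against 7.38, 7.96 and 7.65 CPM in the GFP libraries. Its difference was -0.11 (SE 0.0832, adjusted p = 0.50).

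Pdgfrb, the receptor through which endothelial PDGF-B recruits pericytes, stood at 23.5, 24.7 and 23.8 CPM in the Gas5 libraries, against 24.8, 25.6 and 23.7 CPM in the GFP libraries. The G protein regulator Rgs5 stood at 37.9, 43.5 and 40.8 CPM in the Gas5 libraries, against 41.1, 40.3 and 44.1 CPM in the GFP libraries. Both had a log2 fold change of -0.04 and overlapping groups, with 95% intervals from -0.16 to 0.08 for Pdgfrb and from -0.18 to 0.11 for Rgs5. Anpep, the peptidase CD13, had 1.79 ± 0.539 CPM in the Gas5 libraries and 1.83 ± 0.359 CPM in the GFP libraries (SD, n = 3 each), and a log2 fold change of -0.01.

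Smooth muscle genes were among the lowest in level and the widest in spread, and 0 of 3 were called by edgeR, DESeq2 or limma-voom or had an unadjusted p below 0.05. Acta2, smooth muscle actin, stood at 2.71, 2.29 and 2.71 CPM in the Gas5 libraries, against 1.58, 3.14 and 2.36 CPM in the GFP libraries. Both the lowest and the highest value belonged to GFP libraries, and the log2 fold change was 0.14 (SE 0.238, 95% interval -0.40 to 0.68, adjusted p = 0.776). Myh11, the smooth muscle myosin heavy chain, stood at 4.75, 4.28 and 5.06 CPM in the Gas5 libraries, against 3.76, 5.26 and 4.44 CPM in the GFP libraries, with a log2 fold change of 0.07. Tagln, the actin-binding protein SM22, shares 58.0% of its span with other genes and stood between 0.348 and 0.542 CPM in the Gas5 libraries and between 0.270 and 0.661 CPM in the GFP libraries. Its 95% interval was wide, from -0.89 to 0.88, and its counts were low, so little can be said about a difference in this gene.

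Cspg5 is in the set but is known as a proteoglycan of neurons and glia rather than of vessels. It stood at 131, 119 and 128 CPM in the Gas5 libraries, against 122, 108 and 114 CPM in the GFP libraries, with overlapping groups and a log2 fold change of 0.14 (SE 0.0594, adjusted p = 0.233). The pericyte and oligodendrocyte precursor proteoglycan NG2 is encoded by Cspg4, which stood at 25.9, 27.1 and 22.6 CPM in the Gas5 libraries, against 20.9, 21.8 and 21.1 CPM in the GFP libraries. The Cspg4 groups did not overlap, with a log2 fold change of 0.25 (SE 0.0727, adjusted p = 0.0935). Without Cspg5 the counts of the remaining 35 genes were the same, with 0 higher and 1 lower.

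Cell types that surround the vessels were read beside these genes. The summed level of the 27 endothelial and barrier genes was 902, 892 and 943 CPM in the Gas5 libraries. In the GFP libraries it was 955, 935 and 910 CPM. Tjp1, which neurons and glia also make, is the largest part of that sum. The mean log2 CPM of the 27 genes was 4.06, 4.01 and 4.10 in the Gas5 libraries, against 4.10, 4.03 and 3.99 in the GFP libraries. Sums of 10 perivascular fibroblast and meningeal genes were 62.8 to 79.4 CPM in the Gas5 libraries and 56.2 to 63.9 CPM in the GFP libraries, with 0 called by edgeR, 1 by DESeq2, 0 by limma-voom and 3 higher at an unadjusted p below 0.05. Blood markers summed to 5.96 to 9.30 CPM in the Gas5 libraries and 8.72 to 9.65 CPM in the GFP libraries. Alas2 of that list stood at 0 because it lies wholly inside other genes, where reads were not counted. Of the 4 tested, 0 were called by edgeR, DESeq2 or limma-voom or had an unadjusted p below 0.05. Of 9 tested microglial genes, edgeR called 0, DESeq2 2 and limma-voom 1, and 6 were higher at an unadjusted p below 0.05, with sums of 305 to 333 CPM in the Gas5 libraries and 261 to 295 CPM in the GFP libraries. Of 8 astrocyte genes of the vessel endfeet, 1 was higher, the water channel gene Aqp4 (DESeq2 called 1 higher and limma-voom 0), and 4 were higher at an unadjusted p below 0.05. The log2 fold changes of 7 of the 8 were above 0, with a median of 0.22. Their sum, 2637 to 3157 CPM in the Gas5 libraries and 2981 to 3210 CPM in the GFP libraries, is mostly the glutamate transporter Slc1a2, the 1 gene of the list below 0, with means of 2209 CPM in the Gas5 libraries and 2561 CPM in the GFP libraries (log2 fold change -0.21, adjusted p = 0.258).

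Oligodendrocyte genes were low in the Gas5 libraries, with sums of 1587 to 2008 CPM, against 2050 to 2229 CPM in the GFP libraries, and these did not overlap. All 8 had log2 fold changes below 0, with a median of -0.27, 5 were lower at an unadjusted p below 0.05, and edgeR called 1 lower (Aspa, adjusted p = 0.0467), DESeq2 3 and limma-voom 0. Of 8 ependymal and choroid plexus genes, 5 were tested and 2 were higher, Kl and Rsph1 (DESeq2 and limma-voom each called 2 higher as well). Their sums were 33.3 to 41.1 CPM in the Gas5 libraries and 27.1 to 30.1 CPM in the GFP libraries. Of the 5 tested, 4 had log2 fold changes above 0, among them Foxj1 at 0.12 (edgeR adjusted p = 0.703). The 1 below 0 was Ttr, at -0.65 (edgeR adjusted p = 0.545). Of 6 perivascular macrophage genes, 4 were tested, and 0 were called by edgeR, DESeq2 or limma-voom or had an unadjusted p below 0.05. The 6 genes summed to 22.2 to 30.9 CPM in the Gas5 libraries and 17.0 to 25.3 CPM in the GFP libraries. In every library most of this sum is Cd163, the 1 tested gene above 0 (log2 fold change 0.39, edgeR adjusted p = 0.308). The other 3 tested were below 0, among them Mrc1 at -0.39 (edgeR adjusted p = 0.268), whose groups did not overlap. The median log2 fold change of the 4 was -0.34. The part of these cell types in the lower Flt1 and Slco1a4 values was not tested.

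**Figure D4:**
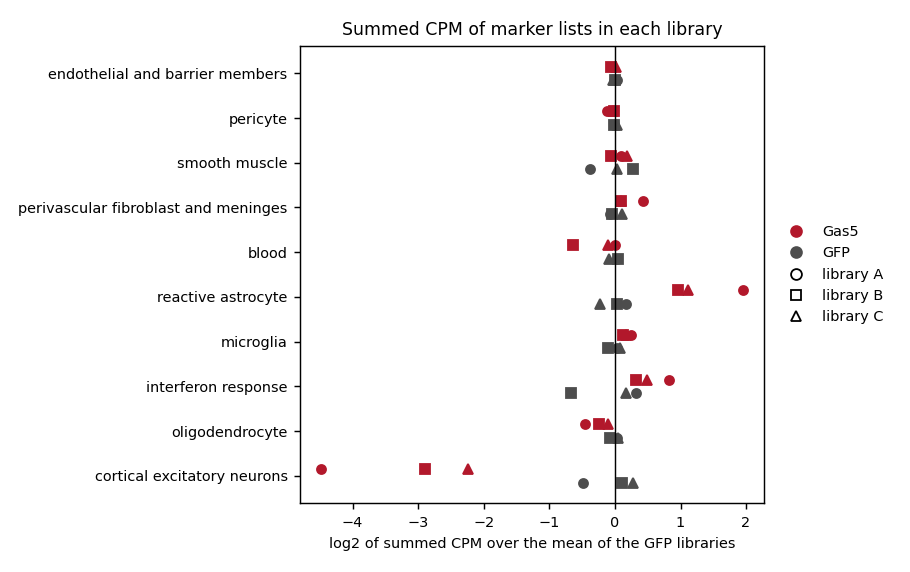
Log2 of the summed CPM of a gene list in a library over the mean of the GFP libraries (x axis), with Gas5 libraries in red above GFP libraries in grey and symbols for the library letter. The endothelial, barrier and pericyte sums stay near 0 in all libraries, whereas the cortical neuron sums of the Gas5 libraries lie far to the left and the reactive astrocyte sums to the right. Tjp1 is the largest part of the endothelial and barrier sum.

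Other genes of the same cells and pathways gave a share of calls near that of all genes. In 9 lists with 144 genes, 131 were tested and 8 were called, 2 higher and 6 lower, which is 6.11% beside 5.44% of all tested genes. Over all tested genes, DESeq2 called 494 higher and 998 lower, and limma-voom 216 higher and 665 lower. Of the 131, DESeq2 called 4 higher and 7 lower, and limma-voom 2 higher and 6 lower, but not the same genes. DESeq2 left out Tgfbr2 and added Acvrl1, Jam2, Wnt7a and the VEGF co-receptor Nrp1, and limma-voom left out Lama4 and added Acvrl1. The median log2 fold change was 0.01. A further 7 genes, among them Angpt2 and Slc7a5, lie wholly inside other genes and were at 0 in every library.

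Ligands and receptors of vessel growth held 3 of the 8 calls among 18 tested genes. Vegfc, a ligand of the lymphatic receptor Flt4 and of Kdr, stood at 7.0, 7.55 and 8.10 CPM in the Gas5 libraries, against 12.0, 10.9 and 14.4 CPM in the GFP libraries. It fell by 0.71 on the log2 scale (SE 0.112, adjusted p = 0.0135), and GFP over Gas5 was 1.64-fold. Vegfa, the main ligand of Flt1 and Kdr, is made in brain chiefly by astrocytes and other cells around the vessels. It stood at 31.6, 37.3 and 37.6 CPM in the Gas5 libraries, against 45.4, 43.5 and 52.8 CPM in the GFP libraries, and fell by 0.41 (SE 0.0902, adjusted p = 0.0386). Tgfbr2, the type II TGF-beta receptor, stood at 37.3, 35.5 and 37.4 CPM in the Gas5 libraries, against 32.1, 32.1 and 30.8 CPM in the GFP libraries, and rose by 0.22 (SE 0.0476, adjusted p = 0.0398, against 0.0511 by DESeq2). In all 3 genes the groups did not overlap. The call held in 5 of 6 fits that left out 1 library for Vegfc, in 0 of 6 for Vegfa and in 1 of 6 for Tgfbr2. Vegfa was lower in all of those fits, with adjusted p between 0.0503 and 0.136.

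Integrin and basement membrane genes gave a call each. Itga8, the integrin alpha 8 chain, stood at 5.24, 5.59 and 5.78 CPM in the Gas5 libraries, against 10.4, 13.7 and 13.9 CPM in the GFP libraries. It fell by 1.19 on the log2 scale (SE 0.124, adjusted p = 0.00473), GFP over Gas5 was 2.27-fold, and the call held in 6 of 6 fits that left out 1 library. Its span overlaps another listed gene, where reads were not counted, so Itga8 was measured on part of its gene only. Itga8 was the 1 call of 11 tested genes in its smooth muscle list, and which cells of the tissue made it was not tested. The defining genes Acta2, Myh11 and Tagln had log2 fold changes of 0.14, 0.07 and -0.01. Lama4, a laminin chain of the vascular basement membrane, stood at 12.1, 12.2 and 12.2 CPM in the Gas5 libraries, against 14, 15.8 and 16.5 CPM in the GFP libraries. It fell by 0.34 (SE 0.0753, adjusted p = 0.0401, against 0.0529 by limma-voom), was the 1 call of 10 tested basement membrane genes, and kept the call in 1 of 6 such fits, the one without GFP A.

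Among 20 other endothelial genes, Podxl was higher, a sialomucin of the endothelial surface that neurons also make. It stood at 35, 34.4 and 33.8 CPM in the Gas5 libraries, against 28.8, 26.7 and 24.1 CPM in the GFP libraries. It rose by 0.37 (SE 0.0682, adjusted p = 0.0221), and lost the call when GFP B (adjusted p = 0.0969) or GFP C (adjusted p = 0.0733) was left out. Acvrl1, the BMP receptor ALK1, was at the edge of the threshold, at 8.47, 7.15 and 8.21 CPM in the Gas5 libraries and 10.2, 10.1 and 10.0 CPM in the GFP libraries, with a log2 fold change of -0.35 (SE 0.0847, adjusted p = 0.0502). DESeq2 (adjusted p = 0.0317) and limma-voom (adjusted p = 0.0484) called it lower. Of 17 other transporters, 2 were lower. The cationic amino acid carrier Slc7a1 stood at 41.6, 37.3 and 40.4 CPM in the Gas5 libraries, against 45, 49.6 and 50.1 CPM in the GFP libraries, and fell by 0.28 (SE 0.0614, adjusted p = 0.0398). Tfrc, the transferrin receptor that carries iron across the barrier and into neurons, stood at 51.9, 56.4 and 57.0 CPM in the Gas5 libraries, against 63.1, 66.5 and 74.5 CPM in the GFP libraries, and fell by 0.30 (SE 0.0688, adjusted p = 0.0427). Slc7a1 kept its call in 2 and Tfrc in 1 of the 6 fits without a library.

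The barrier Wnt pathway, in which Wnt7a, Wnt7b and Ndp act through Fzd4 and its partners on endothelium, had 0 of 17 genes called by edgeR, 1 by DESeq2 and 0 by limma-voom, and 2 at an unadjusted p below 0.05. These were the ligand Wnt7a, at 32.7, 20.8 and 27.4 CPM in the Gas5 libraries and 20.6, 18.2 and 16.0 CPM in the GFP libraries (log2 fold change 0.55, adjusted p = 0.0828), and the transcription factor Lef1 (log2 fold change -0.28, adjusted p = 0.142). Of 14 other junction genes, edgeR called 0, DESeq2 1 and limma-voom 0, with 2 at an unadjusted p below 0.05, the adhesion gene Jam2 at 0.36 (adjusted p = 0.0931) and the catenin Ctnnd1 at -0.33 (adjusted p = 0.110). Of 17 other pericyte genes, 0 were called by edgeR, DESeq2 or limma-voom and 1, Cspg4, had an unadjusted p below 0.05.

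The cortical marker score was 0.461, 1.29 and 1.57 in the Gas5 libraries, against 2.82, 3.43 and 3.54 in the GFP libraries. With the cortical marker score in the fit, all 8 had an adjusted p of 0.9997, and the estimates of Vegfa (0.05) and Tfrc (0.06) changed sign, while Itga8 was at -0.54, Vegfc at -0.34 and Podxl at 0.11. The score does not overlap between the groups, so a difference that follows it and one that follows Gas5 cannot be told apart.

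**Figure D5:**
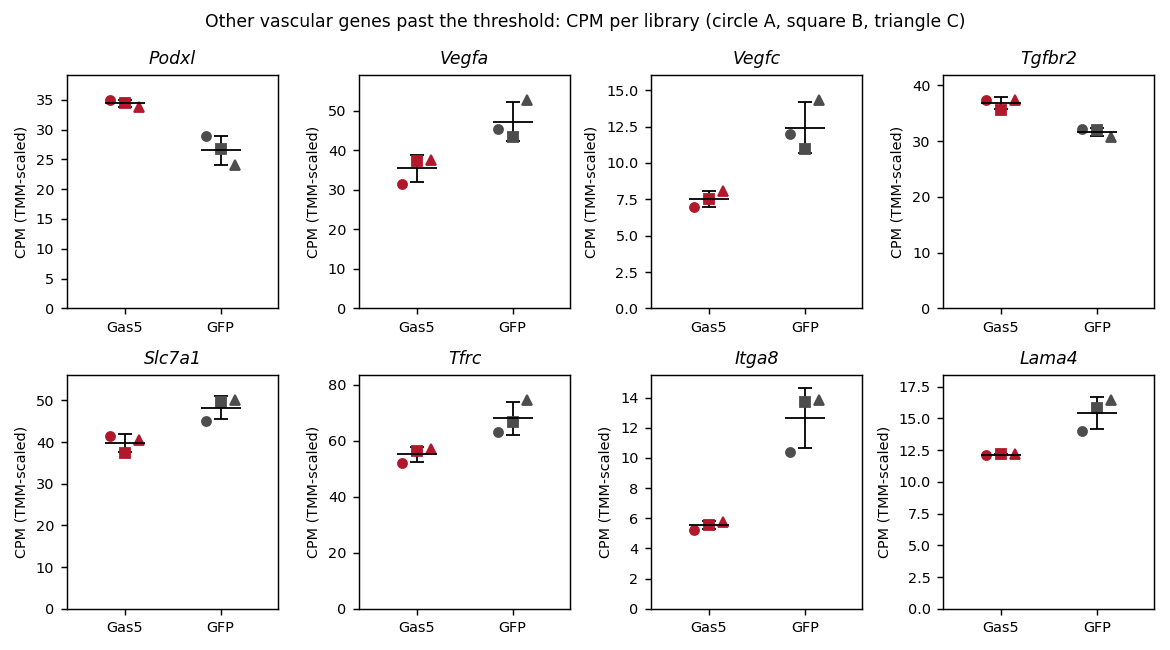
CPM per library of the 8 called genes from the other vascular lists, Gas5 libraries (red) left of GFP libraries (grey), with symbols for the library letter, the mean and the SD of 3 libraries. Podxl and Tgfbr2 are higher in the Gas5 libraries, the other 6 genes are lower, and in none do the groups overlap.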

How the data were processed

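Each deposited table holds whole-number read counts for 1 sample, not normalized, per the file headers and values. Counting with featureCounts 1.5.0-p3, alignment with STAR 2.7.0 to GRCm38.p6, trimming with Trim Galore 0.4.4 and use of bcl2fastq 1.8.4 and edgeR 3.20.9 are credited to the submitters' processing notes. Settings, strand use and annotation release: not given in the sources used here. In the tables the length of a gene is its whole span, so intronic reads were counted, and reads where annotated genes overlap are absent. GENCODE M21 coordinates matched 35 of the 36 genes (Acta2 differs).

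The fit used edgeR 4.0.16 under R 4.3.3: default expression filter, TMM scaling, quasi-likelihood F-test, 2-sided, group as the only term, all 6 libraries, p-values adjusted over 17563 genes by Benjamini-Hochberg at 0.05. The standard error is the absolute log2 fold change over the square root of F, and 95% intervals use its t quantile. The common biological coefficient of variation was 8.28%. Log CPM uses a pseudocount of 0.5. The cortical marker score is the mean log2 CPM of 10 cortical excitatory neuron genes. Fits were tested on simulated data. Alternatives were RLE and upper quartile scaling, no filter, 1 CPM in 3 libraries, DESeq2 1.42.0, limma-voom (limma 3.58.1), the replicate letter as a block, the score as a covariate, overlapping genes left out, and each library left out. Exact tests of 3 against 3 libraries cannot go below p = 0.1, so none was used. Pairs of libraries within a group had a chi-square per degree of freedom of 5.04 to 25.4, more than sampling noise.

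The genes and lists were chosen with earlier results of these data known. Every gene of the set is reported, with full values for called genes and, per role, for the gene of highest level per length and of smallest p. From other lists, the called genes and at most the 2 of smallest p are named. Further values of single genes were added after seeing them.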

Additional observations from a re-analysis of the deposited data

How the results depend on the processing

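Of the 36 genes, 1 was called, and 1 also under RLE or upper quartile scaling, a filter of 1 CPM, limma-voom and without overlapping genes. The number was 3 with no filter, 3 with DESeq2 and 3 with the replicate block (Ly6a and Vcam1 beside Flt1 in each), and 0 with the cortical marker score (0 at an unadjusted p below 0.05). Without single libraries it ranged from 0 to 1: 0 without Gas5 A, GFP A, GFP B or GFP C, and without Gas5 B the call was Vcam1 in place of Flt1. Of the other vascular genes 8 were called, 13 with the replicate block, 0 with the score (3 at an unadjusted p below 0.05), and 1 to 8 without single libraries: 4 without Gas5 A, 4 without Gas5 C, 2 without GFP B and 1 without GFP C. Over all genes, calls numbered 260 higher and 695 lower, against 510 and 928 with the block, 4 and 111 when GFP B was left out, 6 and 101 when GFP C was, 656 and 1002 with no filter, 494 and 998 with DESeq2, and 0 and 0 with the score. The cause was not tested. Flt1 was below 0 in 15 of 15 alternatives and called in 9. Signs of uncalled estimates changed in 71 of 526 values, 21 of them with the score, and in 0 called values. The labels do not say whether the letters pair the libraries, so the block has no stated meaning. Correlations of deviations between libraries of the same letter were 0.164, 0.179 and -0.0936 for A, B and C. Between libraries of different letters they ran from -0.227 to 0.0563, and these values do not settle whether the libraries are paired. Standard errors were widest for Tagln, Anpep and Acta2, which have low counts.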

Other observations

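Ly6a and the summed interferon list put the 6 libraries in the same order. Ly6a ran from 28.4 CPM in Gas5 A through 23.7 in Gas5 C, 20.5 in both GFP A and Gas5 B and 18.1 in GFP C to 14.1 in GFP B, and the interferon sum from 695 CPM in Gas5 A through 556 in Gas5 C, 491 in both GFP A and Gas5 B and 445 in GFP C to 248 in GFP B. The pair was chosen after its values were seen, both measures come from the same libraries with the same scaling, and no test was made. The ratio of Ly6a to its paralog Ly6c1 was 2.48, 1.89 and 1.86 in the Gas5 libraries, against 1.62, 1.47 and 1.89 in the GFP libraries, and the groups overlapped. The ratio of the VEGF receptors, Flt1 to Kdr, was 6.06, 5.70 and 5.73 in the Gas5 libraries, against 5.49, 7.18 and 6.28 in the GFP libraries, also with overlap.

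Level per length ran across the 36 genes from 11.1 CPM per kb in the Gas5 libraries and 11 in the GFP libraries for Cldn5 to 0.0457 in the Gas5 libraries and 0.0466 in the GFP libraries for Anpep. The lengths are whole spans, of which exons take 1.52% (Erg) to 100% (Cldn5), with a median of 12.3%, so genes with long introns read low on this scale.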
